A study of Mus musculus with 9 samples.

Results

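The genes described here encode the core of the spliceosome and the factors that build its Sm ring. The 46 members were chosen by name: Sm and LSm proteins, proteins of the U1, U2 and U4/U6.U5 particles, PRP factors and part of the SMN complex. A member was kept where its symbol stood in the expression table with a mean normalized count of at least 10 over the 9 libraries. All 46 named genes met that rule, out of 15238 genes that passed the same filter and 19944 genes in the table. By role they fall into the Sm ring with 7 genes, the U1 particle with 3, the U2 particle and branch site with 15, the U4/U6.U5 tri-particle with 9, the Prp19 complex with 2, the LSm ring with 7 and the SMN complex with 3.

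Pre-mRNA splicing is carried out by particles that each consist of a small nuclear RNA and its proteins. Sm proteins form a ring on the RNAs of the U1, U2, U4 and U5 particles, and LSm proteins form a like ring on U6. The SMN complex loads the Sm ring in the cytoplasm, and the arginine-glycine tails of the proteins SmB, SmD1 and SmD3 carry methylated arginines that Tudor domains, such as those of SMN and SMNDC1, bind. SND1 is a Tudor-domain protein that, in human cells, has been found with proteins of the U5 particle.

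The study compared livers of male FVB mice, all 60 days old, in 3 groups of 3 libraries. KI mice carry a knock-in allele of Snd1 with a mutated Tudor domain, KO mice lack Snd1, and WT mice are the wild type. The labels name hepatocyte as the cell type, yet the material is liver tissue, and transcripts can come from any of its cells. The design of the knockout allele and the residue changed in the knock-in are not given in the sources used here. Each library has an identification number of its own in the labels, which do not say whether these numbers are animals. If they are not, the p-values speak only of how these samples spread, which may be technical.

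The coding sequences of 3 members are shown because their arginine-glycine tails are what Tudor domains of this family bind. Each stretch is the 27 codons that end with the last arginine-glycine pair of the reading frame, from the principal transcript in GENCODE release M21, 5′ to 3′. Capitals mark an arginine codon followed directly by a glycine codon.
Snrpb: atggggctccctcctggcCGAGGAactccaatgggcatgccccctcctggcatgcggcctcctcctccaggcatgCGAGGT
Snrpd3: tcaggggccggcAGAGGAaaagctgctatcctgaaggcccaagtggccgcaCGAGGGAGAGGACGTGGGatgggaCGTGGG
Lsm4: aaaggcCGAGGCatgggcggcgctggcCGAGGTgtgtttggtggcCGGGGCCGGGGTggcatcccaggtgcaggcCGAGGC
The Snrpb stretch spans codons 203 to 229 of 231 and holds 2 pairs, and the whole reading frame holds 8. The Snrpd3 stretch spans codons 93 to 119 of 126 and holds 5 of that frame's 7 pairs. Lsm4, an LSm protein, has 5 of its 8 pairs in codons 99 to 125 of 138. Snrpd1 has 10 pairs in 119 codons, and 9 of them follow each other without a break. Among the other Sm ring members the count was 2 pairs in Snrpg and 1 each in Snrpd2, Snrpe and Snrpf. These tails are the sequence feature that sets Snrpb, Snrpd1 and Snrpd3 apart from the rest of the ring, and the RNA of these genes is described below.

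The libraries held 59678412 to 66384374 reads in genes. Values are normalized counts, that is, reads per gene divided by a size factor of the library. Snd1 itself had 227, 414 and 359 normalized counts in the KO libraries, against 6951, 8446 and 6512 in the WT libraries. The KI libraries had 5373, 7941 and 5595 normalized counts of Snd1, which overlapped the WT values. A list of 14 pancreas markers took 5.74% of reads in KI_3, 0.485% in KI_1 and 1.22% in WT_3, and at most 0.00525% in each of the other 6 libraries. The 10 acute phase genes took 2.92% to 8.37% of reads in KO libraries, against 0.259% to 0.347% in WT libraries, and all 10 passed the test as higher in KO. Hepatocyte markers were high in every library, at 5.34% to 9.97% of reads, with Alb between 1767535 and 3890486 normalized counts. Some cell markers were called higher in KO than in WT, beside 4.63% of all genes. These were 3 of 10 Kupffer cell and macrophage markers, 1 of 4 tested neutrophil, 1 of 4 cholangiocyte and 1 of 9 hepatocyte markers. Timd4, a Kupffer cell marker not among them, had 346, 224 and 542 normalized counts in KO libraries and 568, 310 and 715 in WT libraries. Neutrophil markers took 0.000198% to 0.00277% of reads in KO libraries, against 6.21e-05% to 0.000231% in WT libraries. Kupffer cell and macrophage markers took 0.0349% to 0.0778% in KO libraries, against 0.0241% to 0.0435% in WT libraries. Only KO_3 lay above the WT range in this share. No lymphocyte, stellate cell or endothelial marker was called in this comparison. The part of these cells in the results below was not tested. In bulk tissue, fewer cells of a type and less RNA per cell cannot be told apart.

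Read against transcript length, the members spanned a wide range of levels. Prpf19, the ubiquitin ligase of the Prp19 complex, stood highest with a mean of 2268 normalized counts per kb of transcript over the 9 libraries. Snrpb, which encodes SmB, followed with 2113, U2af1, the small subunit of the factor that reads the 3′ splice site, with 1814, and Snrpe, a Sm ring protein, with 1713 normalized counts per kb. At the other end were Gemin5, the subunit of the SMN complex that recognises small nuclear RNAs, with 96.3, and Sf3b5 with 102 normalized counts per kb. Counts are of the whole gene, while the length is that of its principal transcript alone. For Sf3b5 this is 3841 bases with a reading frame of 86 codons, so its low rank depends on that annotation. The 7 Sm proteins stand in the same ring, yet their transcripts ranged from 210 normalized counts per kb for Snrpf to 2113 for Snrpb. Together the 46 members took 0.0941% to 0.123% of the reads in KI libraries, 0.11% to 0.113% in KO libraries and 0.107% to 0.122% in WT libraries, so the 3 groups overlapped in this share. The lowest share, 0.0941%, was that of KI_3, the library with the most pancreas reads.

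**Figure D1:**
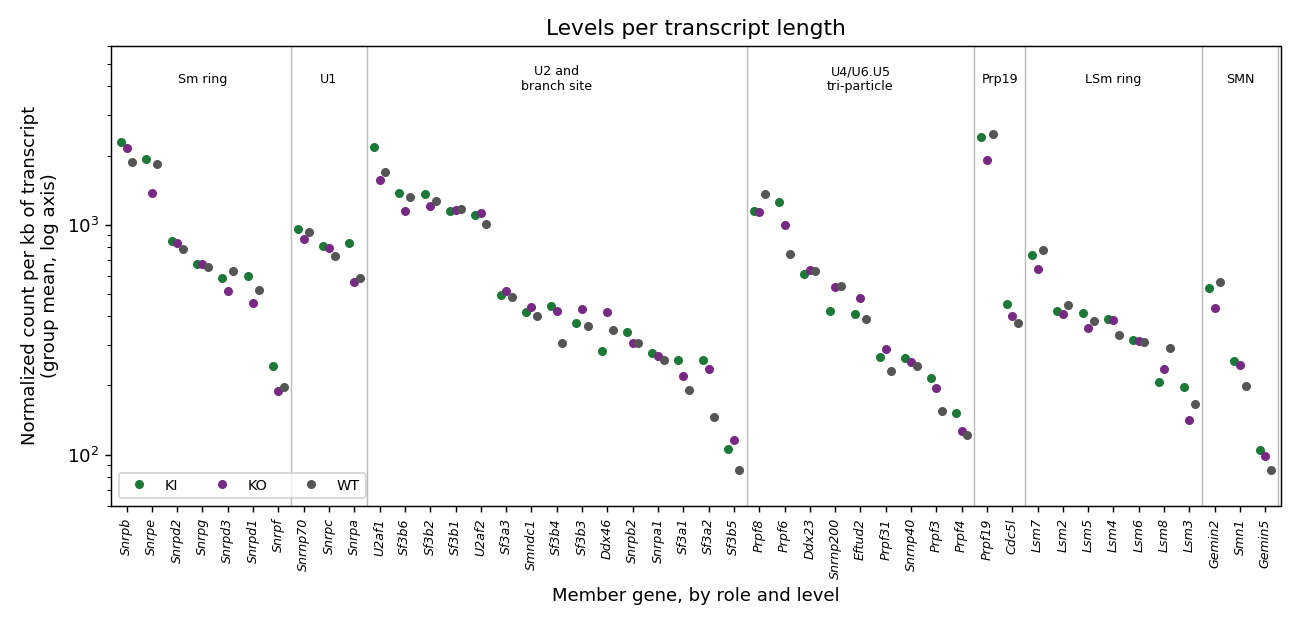
Group means of the 46 members in normalized counts per kb of the principal transcript (vertical log axis), with genes ordered by role and then by level, and KI, KO and WT points side by side. Prpf19, Snrpb and U2af1 lie near the top, Gemin5 and Sf3b5 at the bottom, and the 3 points of a gene lie close together beside the spread between genes.

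In KO livers, 1 of the 46 members passed the test against WT livers: Sf3b4, a protein of the U2 particle, which was higher. Over all genes tested, 8.83% were called in this comparison, 4.63% higher and 4.2% lower in KO. A gene was called where limma's moderated test gave a Benjamini-Hochberg adjusted p under 0.05 over all 15238 genes. At an unadjusted p under 0.05 there were 9 members, beside 25% of all genes. The median log2 fold change of the members was 0.05, with 27 members above 0 and 19 below, where 50% of all genes lay above 0, and the median size of the change was 0.20 for members, beside 0.28 for all genes. KO and WT values did not overlap in 13 members, 10 higher and 3 lower, which is 28.3% of the members. For all genes this share was 29.1%, with 15% higher and 14.2% lower. Most of the intervals were narrow: the 95% interval of the fold change lay within 2-fold in either direction for 45 of the 46 members, and within 1.5-fold for 27.

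In KI livers, no member passed the test against WT livers with limma or with edgeR, while DESeq2 called Sf3b4, Sf3a2 and Prpf6 higher. Of all genes, DESeq2 called 2.53% in KI against WT. In this comparison 0.0263% of all genes were called by limma, 0.00656% higher and 0.0197% lower, which is 4 genes. Before adjustment, 8 members had a p under 0.05, and 11.6% of all genes. The members' median log2 fold change was 0.12, with 35 above 0 and 11 below, while 50.7% of all genes lay above 0. Groups did not overlap in 14 members, 13 higher and 1 lower in KI, or 30.4% of them. For all genes this share was 19.6%, with 9.47% higher and 10.2% lower. The 95% interval lay within 2-fold for 43 members and within 1.5-fold for 25. KO and KI were each set against the same 3 WT libraries, so the 2 comparisons are not independent of each other.

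Between the KI and KO livers, 1 member was called: Snrpa, a protein of the U1 particle, which was higher in KI. Of all genes, 8.45% were called in this comparison, 3.6% higher and 4.85% lower in KI. The members' median log2 fold change was 0.08, with 33 above 0 and 13 below, beside 51% of all genes above 0. Groups did not overlap in 9 members, 7 higher and 2 lower in KI, or 19.6% of the members. For all genes this share was 26.4%, with 12.3% higher and 14.1% lower. At an unadjusted p under 0.05 there were 6 members, beside 24.9% of all genes. The mean of the members on the log2 scale lay 0.14, 0.16 and 0.13 above the WT mean in the KI libraries, 0.11, 0.02 and 0.01 above it in the KO libraries, and from −0.03 to 0.04 of it in the WT libraries. All 3 KI libraries stood above the other 6, but KO_1 with 0.11 lay close to KI_3 with 0.13. The pooled SD of this mean between libraries of a group was 0.04. The mean of all genes tested, taken in the same way, lay at 0.02, −0.08 and 0.09 in the KI libraries. It lay at −0.05, −0.02 and 0.02 in the KO libraries. KO_1 stood further above its all-gene mean than KI_1 and KI_3 did, so the separation does not hold on that footing.

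**Figure D2:**
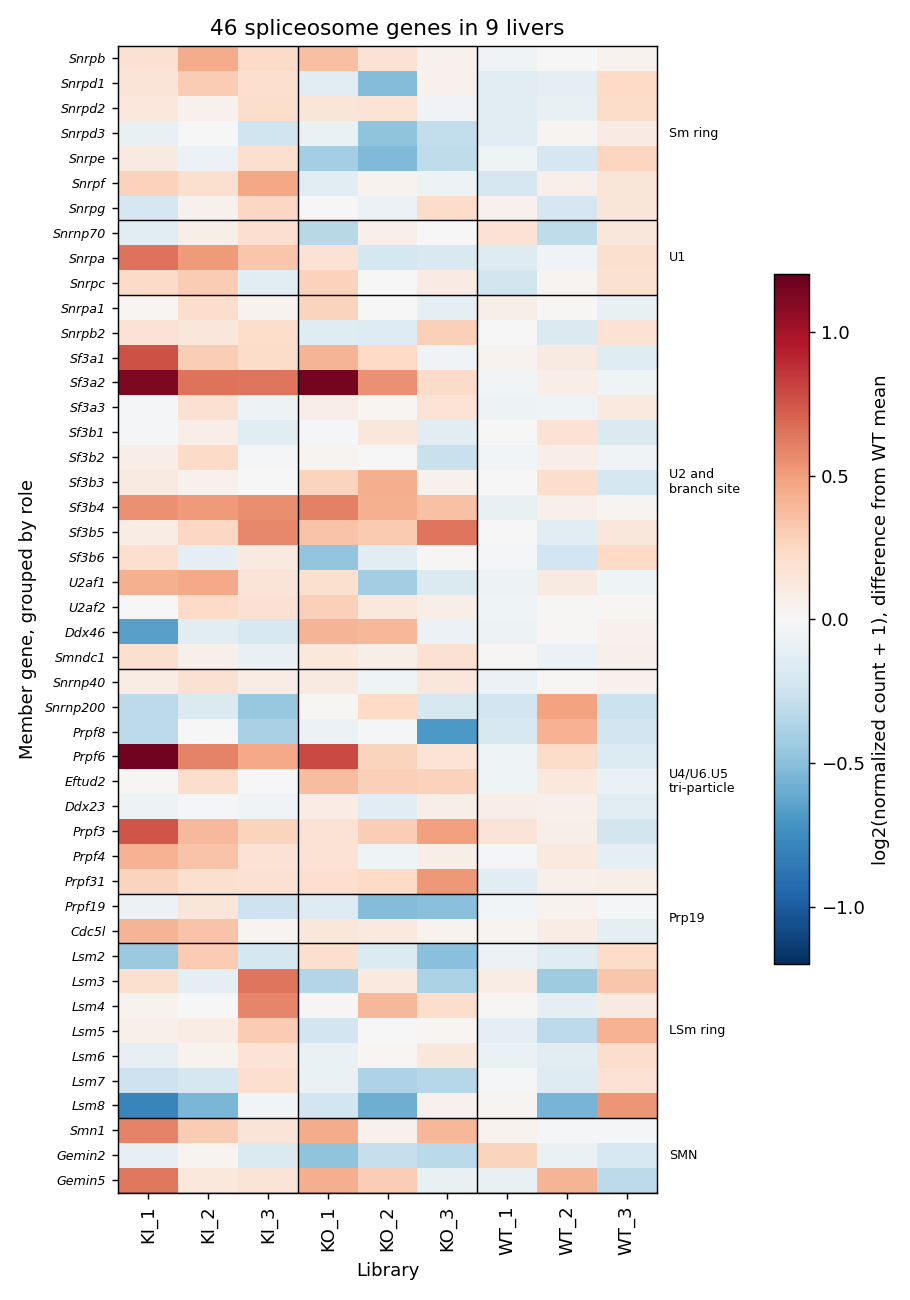
Difference of each library from the WT mean in log2(normalized count + 1) for the 46 members (rows, grouped by role) in the 9 libraries (columns, KI then KO then WT). Red cells are above and blue cells below the WT mean; Sf3b4 and Sf3a2 are red in all 6 KI and KO libraries, and Prpf19 and Snrpe are blue in all 3 KO libraries.

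**Figure D3:**
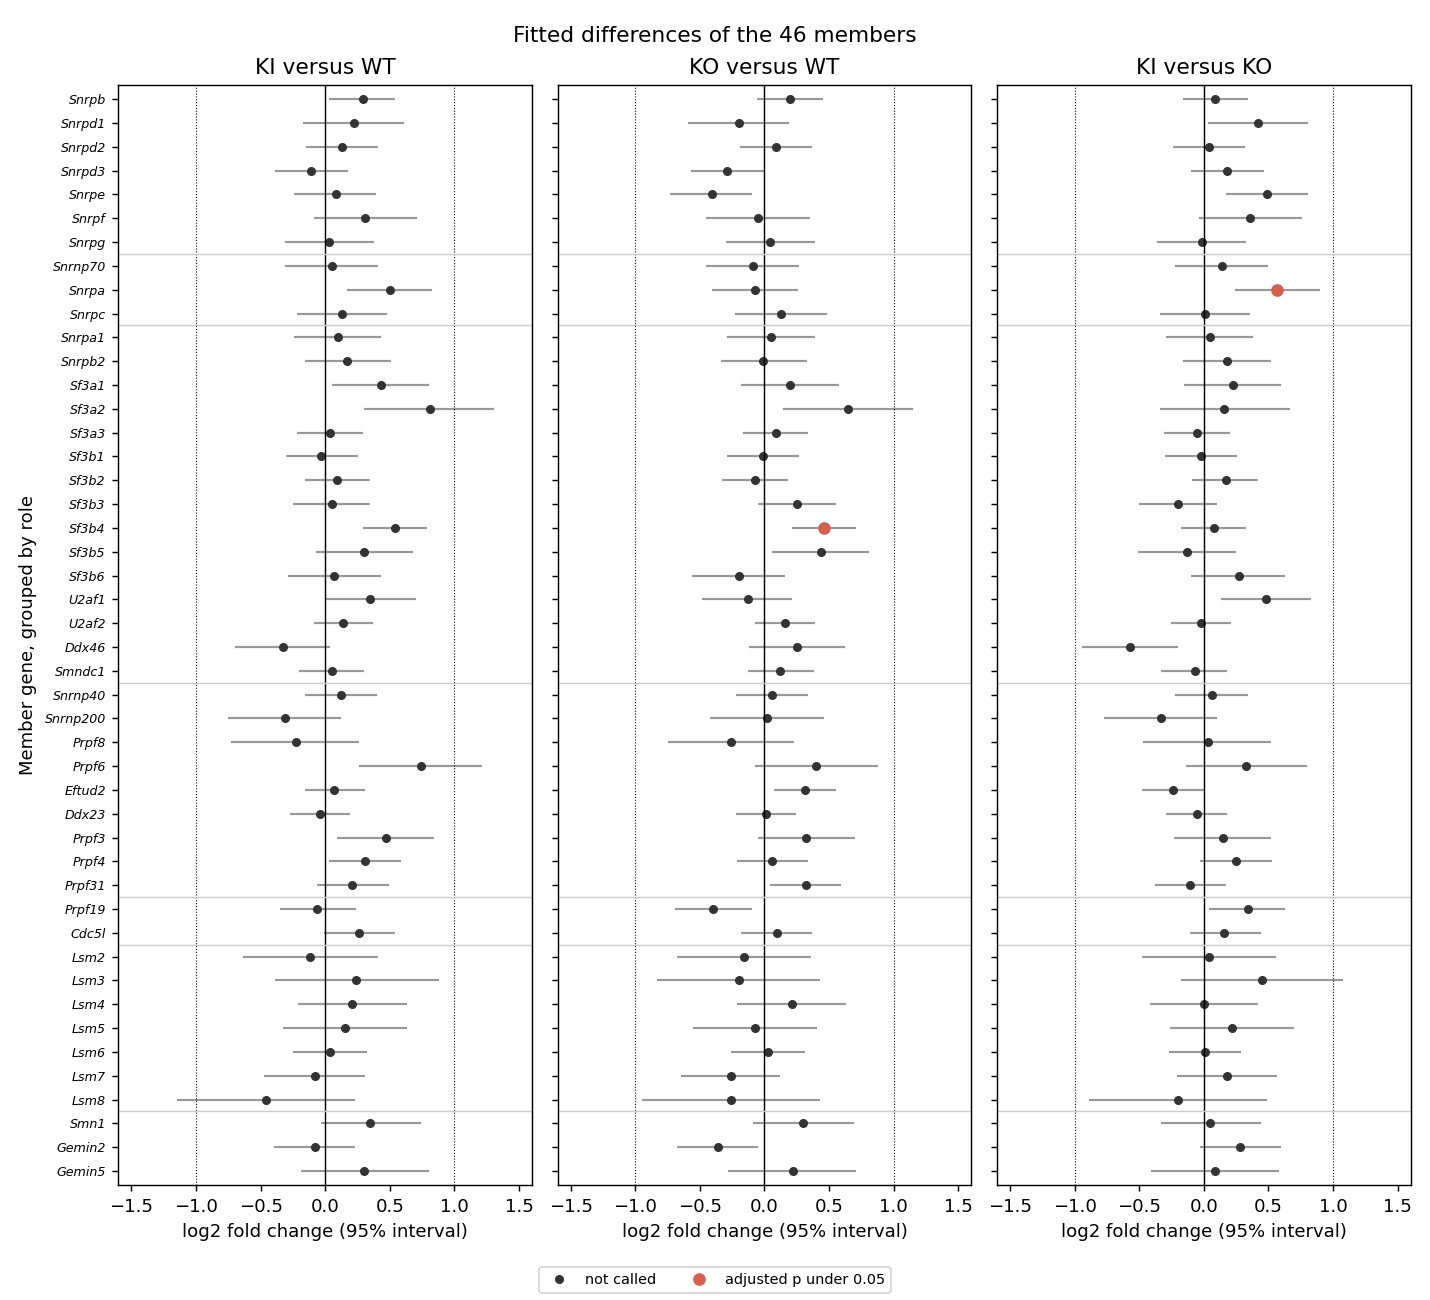
Fitted log2 fold changes (points) with 95% intervals (lines) of the 46 members in KI versus WT, KO versus WT and KI versus KO, with dotted lines at 2-fold. The 2 larger red points are the members with an adjusted p under 0.05, Sf3b4 in KO versus WT and Snrpa in KI versus KO.

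The Sm ring genes encode the proteins that encircle the small nuclear RNAs, and none of the 7 was called in any of the 3 comparisons. Snrpb had 2480, 2972 and 2556 normalized counts in KI livers, 2802, 2462 and 2261 in KO livers, and 2114, 2177 and 2252 in WT livers. All KI and all KO values lay above the WT values, the nearest by a small margin. The log2 fold change of Snrpb was 0.29 ± 0.11 in KI against WT (SE, limma adjusted p = 0.376) and 0.20 ± 0.11 in KO against WT (adjusted p = 0.32). Without WT_3, KI_1 and KI_3 the value of Snrpb in KI against WT was 0.47.
Snrpd1, which encodes SmD1, had 493, 546 and 509 normalized counts in KI livers, 404, 309 and 458 in KO livers, and 406, 408 and 522 in WT livers. KI stood above KO in every library, and both overlapped WT. The log2 fold change was 0.42 ± 0.17 in KI against KO (limma adjusted p = 0.169).
Snrpd3, which encodes SmD3, had 1796, 1905 and 1619 normalized counts in KI livers, 1801, 1362 and 1548 in KO livers, and 1734, 1953 and 2042 in WT livers. The groups overlapped in each comparison. Its log2 fold change was −0.29 ± 0.13 in KO against WT (limma adjusted p = 0.196) and −0.11 ± 0.13 in KI against WT (adjusted p = 0.795). Exons of Gucd1 on the opposite strand cover 6.7% of the exon bases of Snrpd3, and whether reads were counted by strand is not given in the sources used here.
Snrpe, which encodes SmE, had 988, 872 and 1048 normalized counts in KI livers, 692, 634 and 744 in KO livers, and 883, 798 and 1094 in WT livers. Every KO value lay below every WT and every KI value. Snrpe had a log2 fold change of −0.41 ± 0.14 in KO against WT (limma adjusted p = 0.104) and 0.49 ± 0.14 in KI against KO (adjusted p = 0.0632). Snrpf, the gene of SmF, was the ring member with the highest KI against WT value, 0.31 ± 0.18 on the log2 scale (adjusted p = 0.558). Snrpd2 and Snrpg stayed within 0.13 of 0 on the log2 scale in all 3 comparisons. Of the 3 genes with long arginine-glycine tails, Snrpb had a fitted value above 0 in KO against WT, and Snrpd1 and Snrpd3 had values below 0. In KI against KO all 3 lay above 0, with 0.09 ± 0.11 for Snrpb, 0.42 ± 0.17 for Snrpd1 and 0.18 ± 0.13 for Snrpd3. None of these differences was called, so no direction is settled for these genes.

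The U1 particle recognises the 5′ splice site, and Snrpa encodes its U1-A protein, which binds a loop of the U1 RNA. Snrpa lies at chr7:27187005-27196271 on the minus strand of GRCm38. It had 1257, 1143 and 1004 normalized counts in KI livers, 899, 692 and 705 in KO livers, and 720, 777 and 913 in WT livers. The 3 KI values lay above all KO and all WT values, while KO and WT overlapped. Snrpa was higher in KI than in KO livers by 0.57 ± 0.15 on the log2 scale (SE; adjusted p = 0.0433 with limma), with a mean of 1135 ± 127 normalized counts in KI and 765 ± 116 in KO (SD, n = 3 each). Against WT the KI value was 0.50 ± 0.15 (adjusted p = 0.233), and the KO value was −0.07 ± 0.15 (adjusted p = 0.813).
The call of Snrpa in KI against KO was held in 10 of 21 alternative analyses. It was lost in 7 of the 9 fits that each left out 1 library, with log2 fold changes and limma adjusted p of 0.50 and 0.144 with KI_1 left out, 0.56 and 0.0884 with KI_2, 0.66 and 0.0659 with KI_3, 0.51 and 0.158 with KO_2, 0.52 and 0.105 with KO_3, 0.57 and 0.0628 with WT_1, and 0.57 and 0.0658 with WT_2. Without the 3 libraries that hold pancreas reads the log2 fold change of Snrpa was 0.59 (adjusted p = 0.419), and KI_1, one of these 3, had its highest value. Exons of BC024978 on the opposite strand cover 11% of the exon bases of Snrpa, and BC024978 had a mean of 654.3 normalized counts. The other U1 genes showed smaller differences. Snrnp70, the U1-70K protein, had log2 fold changes of −0.09 ± 0.16 in KO against WT, 0.05 ± 0.16 in KI against WT and 0.14 ± 0.16 in KI against KO, and Snrpc, the U1-C protein, had 0.13 ± 0.16, 0.13 ± 0.16 and 0.01 ± 0.16 in the same comparisons.

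The sequence just before the first annotated start of Snrpa is shown because this gene is 1 of the 2 members called. It is chr7:27196272-27196521 on the minus strand, the 250 bases before the start, from RefSeq (GRCm38.p6), within an intron of BC024978 and clear of any annotated exon. Capitals mark the motifs found there.
Snrpa promoter: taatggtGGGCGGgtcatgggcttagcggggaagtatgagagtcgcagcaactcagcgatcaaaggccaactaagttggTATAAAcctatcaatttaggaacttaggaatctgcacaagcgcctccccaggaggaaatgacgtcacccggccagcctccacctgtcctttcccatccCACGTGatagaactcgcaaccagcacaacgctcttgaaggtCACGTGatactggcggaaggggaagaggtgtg
Motifs were searched on both strands by their letters. Of the 46 members, 37 had a promoter entry of this length, and so had 10822 of the tested genes. The GC box, searched as GGGCGG, lies once in the window, in 59.5% of the 37 members and in 60.7% of the tested genes. The TATA box, searched as TATAAA, lies once in the window and occurred in 5.4% of the members, beside 8.7% of the tested genes. The E box, searched as CACGTG, has 2 copies in the window and occurred in 5.4% of the members, beside 9.7% of the tested genes. The ETS motif, searched as CCGGAAG, is not in this window but occurred in 15 of the 37 members, or 40.5%, beside 14.8% of the tested genes and 7.8% of all 27025 genes with an entry. The CCAAT box, searched by those 5 letters, was found in 35.1% of members and 40.7% of tested genes. The YY1 motif, searched as AAGATGGC, was found in 5.4% of members and 2.3% of tested genes. None of these motifs overlaps another in its letters within the Snrpa window. These are matches of letters, with no measure of binding.

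The U2 particle and its helpers recognise the branch site, and 1 of these 15 genes was called. Sf3b4 encodes a subunit of the SF3B complex that contacts the pre-mRNA near the branch site and lies at chr3:96172332-96177564 on the plus strand of GRCm38. It had 856, 831 and 862 normalized counts in KI livers, 888, 786 and 747 in KO livers, and 548, 611 and 597 in WT livers. All 6 KI and KO values stood above all 3 WT values, and KI and KO overlapped. Sf3b4 was higher in KO than in WT livers by 0.46 ± 0.11 on the log2 scale (SE; adjusted p = 0.0345 with limma), with a mean of 807 ± 73.2 normalized counts in KO and 585 ± 33.1 in WT (SD, n = 3 each). In KI against WT its log2 fold change was 0.54 ± 0.11 and its unadjusted p was 0.000768, but the limma adjusted p was 0.128, over alternatives from 0.00279 with DESeq2 to 1. Between KI and KO the difference of Sf3b4 was 0.08 ± 0.11 (adjusted p = 0.726), with a 95% interval of −0.18 to 0.33.
The KO call of Sf3b4 was held in 11 of 21 alternative analyses. It was lost in 7 of the 9 fits that each left out 1 library, with log2 fold changes and limma adjusted p of 0.46 and 0.0544 with KI_3 left out, 0.39 and 0.0544 with KO_1, 0.48 and 0.0953 with KO_2, 0.52 and 0.0503 with KO_3, 0.41 and 0.129 with WT_1, 0.49 and 0.0773 with WT_2, and 0.48 and 0.0876 with WT_3. Without WT_3, KI_1 and KI_3 together the log2 fold change of Sf3b4 was 0.48 in KO against WT (adjusted p = 0.198) and 0.52 in KI against WT (adjusted p = 1). The acute phase genes, all called higher in KO than in WT, took 0.283% to 0.369% of reads in KI livers. Their part in the Sf3b4 values was not tested. An antisense gene, Gm17690, covers 3.9% of the exon bases of Sf3b4 and averaged 77.1 normalized counts.

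**Figure D4:**
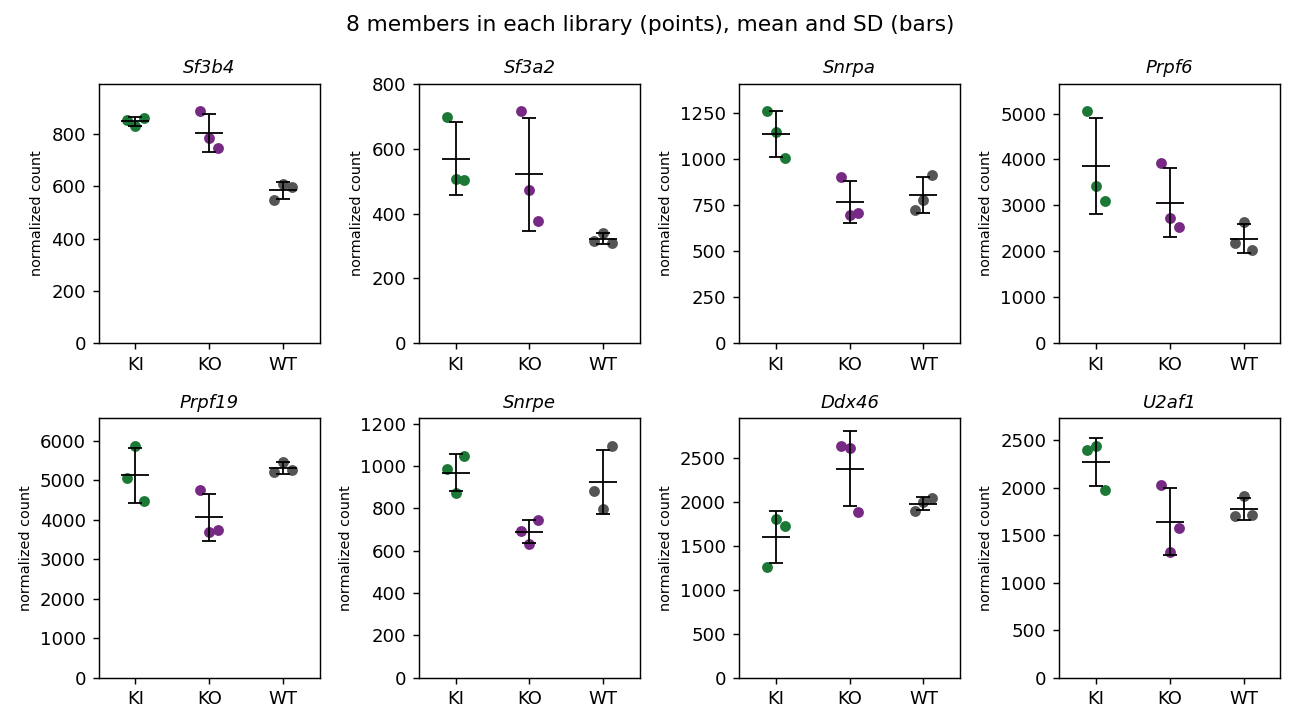
Normalized counts of 8 members in each library (points) with the group mean and SD (bars), with KI, KO and WT from left to right and each vertical axis starting at 0. Sf3b4 and Sf3a2 lie above all WT values in all 6 KI and KO libraries, Snrpa lies highest in KI, and Prpf19 and Snrpe lie lowest in KO.

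Sf3a2, a subunit of the SF3A complex, had 699, 507 and 504 normalized counts in KI livers, 716, 472 and 378 in KO livers, and 315, 341 and 310 in WT livers. Every KI and KO value was above the WT values, with KI_1 and KO_1 far above the others of their groups. Sf3a2 had a log2 fold change of 0.81 ± 0.23 in KI against WT (limma adjusted p = 0.216) and 0.65 ± 0.23 in KO against WT (adjusted p = 0.11). DESeq2 on the recovered reads called both, with an adjusted p of 0.0451 for KI and 0.0436 for KO. Exons of Plekhj1 on the opposite strand cover 16.1% of the exon bases of Sf3a2, and Plekhj1 averaged 531.7 normalized counts, so without the strand their reads cannot be told apart.
Sf3a1, another SF3A subunit, had 1581, 1142 and 1083 normalized counts in KI livers, 1236, 1096 and 903 in KO livers, and 956, 1005 and 839 in WT livers. KI lay above WT in every library and KO overlapped both. Its log2 fold change in KI against WT was 0.43 ± 0.17 (limma adjusted p = 0.38). Sf3a3, the third subunit, differed by 0.09 ± 0.11 in KO and 0.04 ± 0.11 in KI against WT.
Ddx46, the helicase that remodels the U2 particle, had 1265, 1803 and 1733 normalized counts in KI livers, 2637, 2611 and 1887 in KO livers, and 1899, 2001 and 2047 in WT livers. The KI values lay below all KO and all WT values. Ddx46 had a log2 fold change of −0.57 ± 0.17 in KI against KO (limma adjusted p = 0.0625) and −0.33 ± 0.17 in KI against WT (adjusted p = 0.495). It was called in KI against KO by DESeq2, with an adjusted p of 0.0214, and by limma without KO_3, with −0.73 and an adjusted p of 0.0299.
U2af1 had 2393, 2438 and 1977 normalized counts in KI livers, 2028, 1325 and 1577 in KO livers, and 1702, 1913 and 1718 in WT livers. KI lay above WT, while 1 KO library, KO_1, reached into the KI range. Its log2 fold change was 0.48 ± 0.16 in KI against KO (limma adjusted p = 0.0869), and without KO_1 it was 0.64 (adjusted p = 0.0108). U2af2, the large subunit of the same factor, differed by −0.02 ± 0.10 between KI and KO.
Smndc1, a Tudor-domain protein related to SMN that is needed for spliceosome assembly, had 892, 816 and 734 normalized counts in KI livers, 853, 820 and 889 in KO livers, and 790, 745 and 816 in WT livers. Its KO values were a little above the WT values and its KI values overlapped them. The log2 fold changes of Smndc1 were 0.12 ± 0.11 in KO (limma adjusted p = 0.55) and 0.05 ± 0.11 in KI (adjusted p = 0.903) against WT. Sf3b1, the large SF3B subunit that encloses the branch site, was near 0 in all 3 comparisons, with −0.01 ± 0.12 in KO against WT, −0.03 ± 0.12 in KI against WT and −0.02 ± 0.12 in KI against KO. Sf3b6, a small SF3B protein that touches the branch site, had the lowest KO value of this group, −0.20 ± 0.16 against WT (adjusted p = 0.497).

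The U4/U6.U5 tri-particle brings the catalytic RNAs to the pre-mRNA, and none of its 9 genes was called by limma. Prpf6, which bridges the U5 and U4/U6 parts, had 5047, 3412 and 3099 normalized counts in KI livers, 3912, 2716 and 2527 in KO livers, and 2181, 2627 and 2018 in WT livers. KI lay above WT in every library, KO overlapped WT, and KI_1 and KO_1 were again the highest of their groups. The log2 fold change of Prpf6 in KI against WT was 0.74 ± 0.21 (limma adjusted p = 0.223), and with DESeq2 it was 0.76 (adjusted p = 0.0469). Without WT_3, KI_1 and KI_3 the value of Prpf6 was 0.51.
Prpf3, a protein of the U4/U6 part, had 763, 593 and 543 normalized counts in KI livers, 510, 557 and 636 in KO livers, and 502, 475 and 388 in WT livers. Both KI and KO lay above WT, KO by little. Its log2 fold change was 0.47 ± 0.17 in KI against WT (limma adjusted p = 0.321) and 0.32 ± 0.17 in KO against WT (adjusted p = 0.27), and without WT_3, KI_1 and KI_3 the KI value was 0.28.
Eftud2, the GTPase of the U5 particle, had 1296, 1490 and 1288 normalized counts in KI livers, 1665, 1571 and 1560 in KO livers, and 1241, 1407 and 1220 in WT livers. The 3 KO values were above all others, and KI and WT overlapped. Its log2 fold change was 0.31 ± 0.11 in KO against WT (limma adjusted p = 0.102) and −0.24 ± 0.11 in KI against KO (adjusted p = 0.202).
Prpf8, the scaffold of the catalytic centre, and Snrnp200, the helicase that unwinds U4 from U6, are also U5 proteins. Prpf8 had 7994, 9944 and 7609 normalized counts in KI livers, 9472, 9813 and 6172 in KO livers, and 8726, 13324 and 8465 in WT livers. Snrnp200 had 2848, 3143 and 2575 normalized counts in KI livers, 3570, 4179 and 3089 in KO livers, and 3019, 4934 and 2966 in WT livers. In both genes WT_2 was far above the other WT libraries and the groups overlapped. Prpf8 differed by −0.26 ± 0.22 in KO and −0.23 ± 0.22 in KI, and Snrnp200 by 0.02 ± 0.20 in KO and −0.31 ± 0.20 in KI, against WT. The 3 U5 proteins reported with SND1, Prpf8, Snrnp200 and Eftud2, were thus on different sides of 0 in KO against WT. Prpf31 and Prpf4, both of the U4/U6 part, had KI against WT values of 0.21 ± 0.12 and 0.31 ± 0.12. Snrnp40 and Ddx23, proteins of the U5 particle, lay within 0.12 of 0 in all 3 comparisons.

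Prpf19 and Cdc5l belong to the Prp19 complex, which joins the spliceosome when it is activated. Prpf19 had 5059, 5870 and 4483 normalized counts in KI livers, 4758, 3693 and 3748 in KO livers, and 5204, 5481 and 5259 in WT livers. Every KO value was below the WT values, with KO_1 the nearest, and KI overlapped both groups. The log2 fold change of Prpf19 in KO against WT was −0.40 ± 0.13 (limma adjusted p = 0.0962), and without KO_1 it was −0.51 and was called (adjusted p = 0.0176). In KI against KO it was 0.34 ± 0.13 (adjusted p = 0.149), and without KO_1 it was 0.46 and was called too (adjusted p = 0.032). KO_1 was the KO library with the smallest share of acute phase reads, 2.92%, against 7.06% in KO_2 and 8.37% in KO_3, and the part of this in the Prpf19 values was not tested. Cdc5l differed by 0.10 ± 0.12 in KO and 0.26 ± 0.12 in KI against WT, neither called.

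The LSm ring holds the end of the U6 RNA, and none of its 7 genes was called. Lsm8, the subunit that marks the nuclear ring, had 129, 153 and 220 normalized counts in KI livers, 191, 149 and 233 in KO livers, and 229, 152 and 325 in WT livers. Lsm3 had 138, 111 and 188 normalized counts in KI livers, 94.3, 131 and 92.3 in KO livers, and 128, 89.6 and 152 in WT livers. The spread inside each group was wide and the groups overlapped. Lsm8 had the widest interval of all members, with a log2 fold change of −0.46 in KI against WT and a 95% interval of −1.15 to 0.23, which reaches past 2-fold. Lsm4, which carries the arginine-glycine tail shown above, had 316, 307 and 460 normalized counts in KI livers, 310, 405 and 354 in KO livers, and 309, 282 and 329 in WT livers. Its log2 fold change was 0.21 ± 0.19 in KI and also 0.21 ± 0.19 in KO against WT (limma adjusted p = 0.715 and 0.543). Lsm7 had the highest level of this ring, 719 normalized counts per kb, and its groups overlapped. The log2 fold change of Lsm7 in KO against WT was −0.26 ± 0.17 (limma adjusted p = 0.39), the lowest of the ring beside −0.26 ± 0.31 for Lsm8.
The mean of the LSm genes differed between libraries of the WT and KI groups, and little between KO libraries. On the log2 scale it lay 0.28 above the WT mean in WT_3 and 0.26 below the WT mean in WT_2. It lay 0.24 above the WT mean in KI_3 and 0.18 below in KI_1. In KO_1, KO_2 and KO_3 the values were −0.11, −0.08 and −0.12. After group means were removed, the median Pearson correlation between pairs of LSm genes over the 9 libraries was 0.53 for 21 pairs, beside 0.03 for all 1035 pairs of members. It was 0.31 for 36 pairs of the tri-particle, 0.17 for 21 pairs of the Sm ring and 0.56 for the 1 pair of the Prp19 complex. Transcript length was set against the difference of each library from the mean of the others of its group. Over the 46 members Spearman's rho between that difference and transcript length was 0.70 in WT_2, −0.72 in WT_3 and −0.05 in WT_1. The values of WT_2 and WT_3 partly mirror each other, since each is measured against the other. For 14947 tested genes and their exon length, rho was 0.14 in WT_2 and −0.17 in WT_3. Over the members rho was 0.29, 0.23 and −0.40 in KI_1, KI_2 and KI_3, and 0.13, 0.26 and −0.34 in KO_1, KO_2 and KO_3. Of the 3 libraries with the lowest rho, WT_3 and KI_3 hold pancreas reads, while in KO_3 the pancreas markers took 0.00194% of reads. KI_1 holds them and had a rho above 0, but it was measured against a mean that includes KI_3. The part of pancreas reads in these values was not tested. Against the others of the group, the shorter 23 members had a median of 0.03 in KI_3, −0.00 in KO_3 and 0.22 in WT_3, and the longer 23 had −0.19 in KI_3, −0.13 in KO_3 and −0.12 in WT_3.

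**Figure D5:**
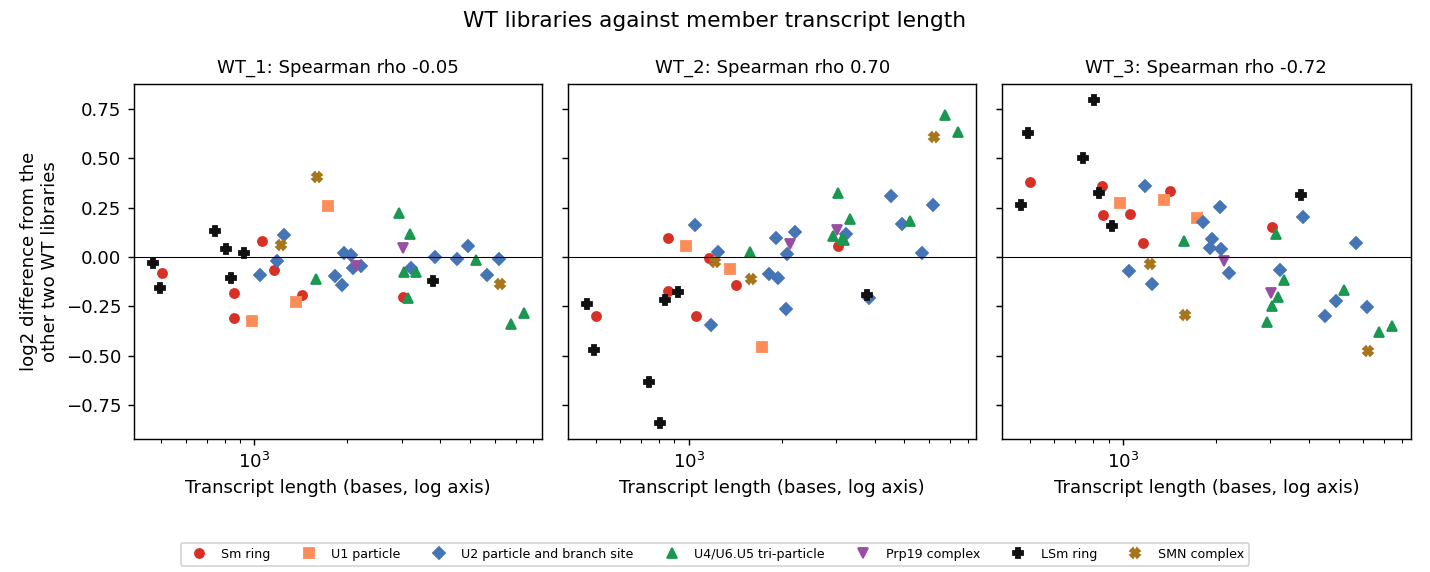
Difference of each WT library from the mean of the other WT libraries, in log2(normalized count + 1), for the 46 members against transcript length (log axis), with a marker for each role. Long members lie high in WT_2 and low in WT_3, with Spearman's rho of 0.70 and −0.72, and show no such slope in WT_1, with −0.05.

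The SMN complex assembles the Sm ring, and none of the 3 genes was called. Smn1, its central Tudor-domain protein, had 366, 300 and 270 normalized counts in KI livers, 330, 251 and 320 in KO livers, and 249, 239 and 238 in WT livers. All KI and KO values were above the WT values, KO_2 only just. Smn1 had a log2 fold change of 0.35 ± 0.17 in KI (limma adjusted p = 0.477) and 0.30 ± 0.17 in KO (adjusted p = 0.32) against WT. Gemin2, which holds the Sm proteins before they are loaded, had 827, 908 and 787 normalized counts in KI livers, 633, 731 and 711 in KO livers, and 1071, 842 and 775 in WT livers. Its KO values were below all KI and WT values, with a log2 fold change of −0.36 ± 0.14 in KO against WT (adjusted p = 0.145). Gemin5 had values of 0.22 ± 0.22 in KO and 0.30 ± 0.22 in KI against WT, with overlapping groups.

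A further 98 splicing genes outside the member list were followed in the same fit, and 97 of them passed the filter. They comprise the rest of the SMN complex, Sm methylation, small nuclear RNA export and import, other core factors, the minor spliceosome, SR proteins, hnRNP proteins and the exon junction complex. In KO against WT, 1 was called, or 1.03%, beside 8.83% of all genes. This was Plrg1, a partner of Prpf19 and Cdc5l in the Prp19 complex. Plrg1 had a mean of 1978 ± 428 normalized counts in KO and 1177 ± 101 in WT (SD, n = 3 each). Its log2 fold change was 0.73 ± 0.17 (limma adjusted p = 0.0302). None passed in KI against WT by limma. Before adjustment, 10 of the 97 had a limma p under 0.05, beside 11.6% of all genes. In KI against KO, 3 were called, or 3.09%, beside 8.45% of all genes, and all 3 were higher in KI. These were Wdr77, the partner of the Sm methyltransferase Prmt5, with 0.52 ± 0.13 (adjusted p = 0.0326), the exon junction protein Rbm8a with 0.48 ± 0.12 (adjusted p = 0.0345) and the hnRNP protein Hnrnpc with 0.41 ± 0.11 (adjusted p = 0.0418). Whether the calls of Plrg1, Wdr77, Rbm8a and Hnrnpc held in the alternative analyses was not followed.
The medians of these lists were small as well, 0.05 in KO against WT, 0.10 in KI against WT and 0.03 in KI against KO, on the log2 scale. Among the 6 Sm methylation genes, Prmt5 itself, the enzyme that methylates SmB, SmD1 and SmD3, had 0.04 ± 0.16 in KO and 0.27 ± 0.16 in KI against WT. Riok1, an adaptor of Prmt5, had 0.73 ± 0.20 in KO against WT (limma adjusted p = 0.0528), with groups that did not overlap. Of the rest of the SMN complex, Gemin4 stood below the filter, and the other 5 genes were above 0 in KI against WT, from 0.13 for Strap to 0.38 for Gemin8, none called.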

How the data were processed

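Total RNA of 9 mouse liver samples was made into mRNA libraries with a stranded kit, per the labels' protocols. The submitters' processing notes name TopHat2, Bowtie2 and featureCounts and the build GRCm38; the versions, the gene annotation, the strand setting and the scaling tool are not given in the sources used here. The authors deposited 1 table of signal per gene and library, named normalized counts. With a tolerance of 0.0051, each library had 99.99% or more of its values at whole multiples of a step, so whole reads could be recovered with size factors of 0.8921 to 1.1051, and 5 values in all were not whole. No column was without a sample (0 columns).

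The test was limma 3.58.1 in R 4.3.3 on log2(deposited value + 1), with a variance trend and a mean per group, in genes with a mean of at least 10, all tests two-sided. All 9 libraries entered each fit, with 6 residual degrees of freedom, and p-values were adjusted by Benjamini-Hochberg over 15238 genes. Fold changes of low genes are understated on this scale. Errors of means are SD, those of log2 fold changes SE. edgeR 4.0.16 called 1210, 1 and 1200 genes and DESeq2 1.42.0 called 2294, 385 and 2287 genes on the recovered reads in KO against WT, KI against WT and KI against KO. Other alternatives were the pseudocount, the filter, the scaling, the groups in the fit, a pancreas covariate, a replicate block and leaving out libraries. In data simulated for KO against WT on 15238 genes, the fit recovered 4.48% of genes changed 1.5-fold, 40.3% of those changed 2-fold and 66.7% of those changed 4-fold.

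The members, lists and rules were chosen with earlier results of these data known. Named members are those called, the 5 with the smallest p in a comparison, the extremes of each role in fold change or level, and Snrpb, Snrpd1, Snrpd3, Smn1, Smndc1 and Snd1; other members, the called genes of the further lists, Riok1, Prmt5 and the SMN complex genes Gemin4, Gemin8 and Strap were named after their values were seen. Libraries are named by the replicate number of their title. No library repeats another of its group, since chi-square over its degrees of freedom was 68.1 for the closest pair. Exons, strands and overlaps come from GENCODE release M21 on GRCm38; 12 members share exon bases with another gene. Python 3.11 with numpy 2.4.6, pandas 2.3.3, scipy 1.17.1 and matplotlib 3.10.9 was used.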

Additional observations from a re-analysis of the deposited data

How the results depend on the processing

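Across 21 alternatives, the members' median log2 fold change kept its sign in all 3 comparisons, with values from 0.01 to 0.08 in KO against WT, 0.09 to 0.19 in KI against WT and 0.07 to 0.13 in KI against KO. It was 0.01 with upper-quartile scaling in KO against WT and 0.19 without WT_3, KI_1 and KI_3 in KI against WT. Leaving out 1 library in turn gave medians of 0.03 to 0.08, 0.09 to 0.17 and 0.07 to 0.13, in the order KO against WT, KI against WT and KI against KO. The number of members called, 1, 0 and 1 in that order, ranged over those same omissions from 0 to 1, from 0 to 0 and from 0 to 3. It was 2, 3 and 3 with DESeq2, which called 15.1%, 2.53% and 15% of all genes. The number of members called was 0 in both KO against WT and KI against KO in 3 alternatives. With the pancreas covariate 6.46% and 1.81% of all genes were called in these comparisons. With only the 2 groups compared in the fit the shares were 5.72% and 3.99%, and without WT_3, KI_1 and KI_3 they were 0.197% and 0.0263%. No other scaling, filter or pseudocount changed which members limma called. The 3 members called without KO_1 in KI against KO were Prpf19, Snrpa and U2af1, in a fit that called 15.1% of all genes. Of the values for Snd1, the log2 fold change in KI against WT was −0.23 and became 0.05 without WT_3, KI_1 and KI_3, and neither passed the test. The number of all genes called ran from 30 to 2516, from 0 to 385 and from 4 to 2301, against 1346, 4 and 1287. The causes were not tested.

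Whether the replicate numbers of the titles pair the libraries was left unsettled. The deviations of same-numbered libraries correlated between −0.136 and 0.568, and not all correlations were over 0.1. Deviations from a mean of 3 libraries sum to 0, so these correlations cannot decide on pairing. The numbers in the column names differ from those of the titles for most libraries and were not tried as pairs. With the replicate number as a block, 2 members were called in KO against WT, Sf3b4 higher with an adjusted p of 0.0484 and Snrpe lower with 0.0495, and 0 in KI against WT. In KI against KO the block called 1 member, Snrpe, with an adjusted p of 0.0288, while Snrpa had 0.0518. Of all genes, the fit with the block called 10.2% in KO against WT, 0.0197% in KI against WT and 9.84% in KI against KO.

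With 3 libraries a group, the median half-width of the members' 95% intervals was 0.34 on the log2 scale. A call asks for more than such an interval, since p-values were adjusted over all genes. Data were simulated on 15238 genes, with 67 genes drawn from all those tested changed 1.5-fold. The fit recovered 4.48% of these in KO against WT, 2.99% in KI against WT and 1.49% in KI against KO. In the deposited data 8.83%, 0.0263% and 8.45% of genes were called in that order, so the adjustment was not that of the simulation. These rates are therefore not those of the members, and Sf3b4 was called at a log2 fold change of 0.46. How depth limits the calls was not tested. Strand and multiple mapping of reads were not checked from these values.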

Other observations

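Relatives of the Sm and LSm genes that are no members were followed as well, a list added after the main results were known. None of the 11 with a fitted value was called in any of the 3 comparisons. Of all genes, 8.83% were called in KO against WT, 0.0263% in KI against WT and 8.45% in KI against KO. With 11 genes, no call is near these shares. Snrpn, which encodes a SmB-like protein and is best known from neurons, had 167, 142 and 137 normalized counts in KI livers, 161, 146 and 148 in KO livers, and 128, 170 and 143 in WT livers, so the groups overlapped. Lsm10, which with Lsm11 replaces SmD proteins in the ring of the U7 particle for histone mRNA ends, had 391, 506 and 469 normalized counts in KI livers, 389, 373 and 367 in KO livers, and 542, 514 and 449 in WT livers. Its KO values lay below all WT values, at −0.41 ± 0.14 on the log2 scale (SE; adjusted p = 0.11 with limma), and Lsm11 had 0.09 ± 0.23 (adjusted p = 0.858). Lsm1, the subunit of the cytoplasmic ring that acts in mRNA decay, had 0.11 ± 0.12 in KO and −0.03 ± 0.12 in KI against WT. Sart3, which helps U4 and U6 join again after splicing, had 0.25 ± 0.13 in KO against WT (adjusted p = 0.279).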
